A study of Mus musculus with 67 samples.

Results

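The comparison described here is that of Orai1 KO with WT primary microglia after LPS: 5 KO libraries (2 female, 3 male) against 6 WT libraries (3 female, 3 male), which are 11 of the 34 culture libraries and of the 67 libraries in all. They were chosen by their labels, as the columns of the culture table that begin with KO or WT and end in LPS. WT cultures came from Orai1fl/fl mice and KO cultures from Orai1fl/fl mice that also carried Cx3CR1-cre/ERT2, a Cre recombinase that tamoxifen activates and that the Cx3cr1 locus drives. All of these cultures were grown from the hippocampus of newborn pups, received 1 µM OH-tamoxifen, and were shaken off an astrocyte layer before plating in serum-free medium. LPS was given at 10 ng/ml for 6 h. The companion cultures received DMSO as vehicle, or thapsigargin at 0.2 µM with the phorbol ester PDBu at 50 nM (Tg+PDBu). Since no WT culture carried the Cre, Orai1 loss and the presence of the Cre cannot be told apart.

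Microglia are the resident macrophages of the brain. LPS, a component of the outer membrane of Gram-negative bacteria, binds Toll-like receptor 4 and drives NF-kB and interferon programmes that raise cytokines, chemokines and their feedback inhibitors within hours. Orai1 forms the pore of the store-operated calcium channel, which STIM proteins open when the endoplasmic reticulum loses calcium, and calcium entering through it activates calcineurin and the NFAT transcription factors. The counts come as numbered rows that the files pair with no gene name, so the rows are given by position, and neither Orai1, these pathways nor the markers of any cell type could be looked up. It could therefore not be checked that the cultures were microglia. In bulk RNA, fewer cells of a type and less RNA per cell cannot be told apart.

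The 11 libraries held 7868694 to 13522077 counts. Row 1, which was singled out after its values were seen and so checks no label, held 28 to 56 counts in each of the 5 KO LPS libraries and 0 in each of the 6 WT ones. In the 5 KO Tg+PDBu libraries it held 0 to 4 counts. Sex was read from 3 rows specific to males in the sorted cells. Their summed level stood at 0.414 of the mean of male cultures in WT female replicate 3, against 0 to 0.0157 in the other 4 female LPS libraries, so this library goes against its label in part, and the counts of calls are given without its culture as well. Each of the 10 pairs of LPS libraries of 1 group differed by more than sampling noise, with a chi-square of at least 16.9 for each degree of freedom. The labels call the libraries separate samples and do not say which pups each culture came from, so p-values measure the spread between these cultures.

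KO libraries spread their counts over more rows than WT libraries. A count was present in 18396 to 19779 rows of each KO library and in 16847 to 17788 rows of each WT library, with no overlap. The 100 most abundant rows of a library took 18.9% to 22.6% of the counts in KO and 24.7% to 28.5% in WT, again with no overlap. The TMM factors, which correct each library for such differences in composition, ran from 1.06 to 1.16 in KO and from 0.643 to 0.909 in WT. The numbers of rows with a count were apart with vehicle too, at 18644 to 20267 in KO and 17713 to 18311 in WT. With Tg+PDBu they ran from 18916 to 19779 in KO and from 17467 to 18576 in WT. The first principal component of the 11 libraries held 63.2% of the variance and placed all KO libraries on one side (-98.3 to -55.3) and all WT libraries on the other (14.5 to 104). WT female replicate 3 at 14.5 and WT male replicate 2 at 40.4 were nearest to the KO libraries, and KO female replicate 1 at -55.3 was nearest to WT.

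The first question was which rows differ between KO and WT once both have seen LPS. Of 15979 rows with enough counts, 10125 (63.4%) were called in edgeR's quasi-likelihood test at a Benjamini-Hochberg adjusted p under 0.05, 5318 higher in KO (33.3%) and 4807 lower (30.1%). The sizes were unequal. Among the rows called, 2114 were over 4-fold higher in KO and 415 over 4-fold lower, while below 1.5-fold the order was reversed, with 673 higher and 1844 lower. Tested against a 2-fold difference rather than against none, 3258 rows were called (20.4%), 2406 higher and 852 lower (5.33%). In 37.8% of rows the CPM (counts scaled to a common library size by TMM) of the 5 KO and 6 WT libraries did not overlap at all, with KO above WT in 20.3% and below in 17.5%.

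Scaling sets the direction of the smaller differences. With library totals alone, in place of TMM, the log2 differences moved by a median of 0.57 and the calls became 9209 higher and 1730 lower, with 3313 over 4-fold higher and 177 over 4-fold lower. With RLE size factors the shift was -0.03 and the calls were 5127 and 5053. Lower rows came to exceed higher ones without KO female replicate 1 (4888 higher, 5085 lower) or replicate 2 (4413 and 4574), and the count past 2-fold fell to 2108 without KO female replicate 2. Without WT female culture 3 there were 5555 higher and 4984 lower rows, and 4060 past 2-fold. With the LPS libraries fitted alone, so that they alone set the spread, 8711 rows were called, 4558 higher and 4153 lower. With culture as a block in voom 9825 were called, 5184 higher and 4641 lower. Culture numbers, read from the library names, were not spread evenly over the groups. Among males of culture numbers up to 10 (2 KO, 3 WT) 3128 rows were higher and 2574 lower, and among females of numbers 12 and over (2 KO, 2 WT) 3039 and 1884.

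Direction followed the level of the row. The rows were divided into 4 classes of equal size by their mean level over the 11 libraries. In the lowest class 42.4% were higher in KO and 6.41% lower, and 1071 of the over 4-fold rises lay there. In the second class 51.9% were higher and 11.7% lower, and in the third 28.3% and 33.5%. In the highest class, from a mean log2 CPM of 5.71 upwards, 10.5% were higher and 68.7% lower, with a median log2 difference of -0.48. That direction turned with library totals alone, where 38.6% of the highest class were higher and 28.0% lower, with a median of 0.10. The order of the classes was kept, with medians of 1.76, 1.13, 0.49 and 0.10 from the lowest to the highest. Rows near absence in one genotype lay mostly on the WT side: 150 rows called higher in KO had at most 3 counts summed over the WT libraries, against 16 rows called lower with at most 3 counts over the KO libraries. The former reached a mean of at most 8.61 CPM in KO. Rows with few counts in either genotype pass the count filter through other libraries, so these counts are partly set by the filter. The lowest class has the same limit.

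**Figure D1:**
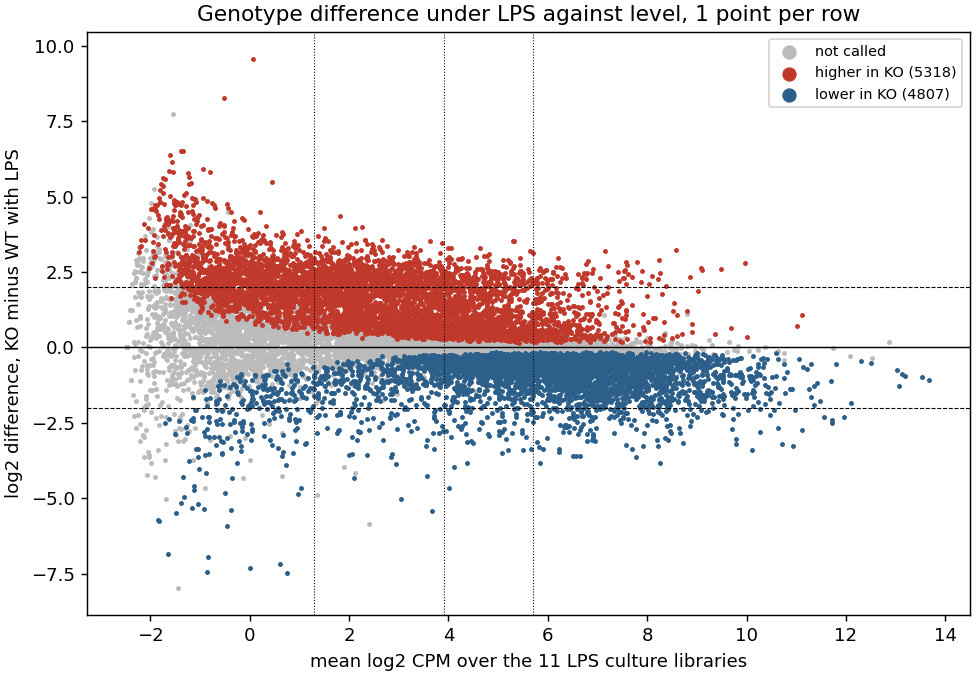
Log2 difference of KO minus WT in LPS cultures (vertical axis) against the mean log2 CPM of each row over the 11 libraries (horizontal axis), 1 point per row tested; dotted lines bound the 4 classes of level and dashed lines mark 4-fold. The 5318 rows called higher in KO lie mainly at low levels and the 4807 called lower mainly at high levels; with library totals alone the median of the highest class turns from -0.48 to 0.10.

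The rows named were those with the largest fold change each way among called rows of mean log2 CPM of at least 3 whose genotypes did not overlap. Row 6895 stood at 29.1 and 76.5 CPM in the KO female libraries and at 46.9, 19.5 and 76.9 CPM in the KO male ones. The 6 WT libraries ran from 2.59 to 7.37 CPM with a median of 4.28, so the lowest KO library was above the highest WT one. The log2 difference was 3.53 ± 0.50 (SE, edgeR adjusted p = 1.69e-06). Row 6895 was higher in KO with vehicle and with Tg+PDBu too, by 2.53 ± 0.45 and 2.87 ± 0.49.

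Row 5 stood at 61.1 and 221 CPM in KO females and at 239, 117 and 234 CPM in KO males, against 4.51 to 44.3 CPM in WT with a median of 14.7. The WT library nearest to KO was female replicate 3, and the KO library nearest to WT was female replicate 1. The log2 difference was 3.52 ± 0.43 (SE, edgeR adjusted p = 2.26e-07), with 2.52 ± 0.39 in vehicle cultures. Row 5 had too few counts to be tested in the sorted cells.

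Row 4624 went the other way. It stood at 4.59 and 0.764 CPM in KO females and at 6.44, 4.88 and 0.962 CPM in KO males, while WT libraries ran from 26.5 to 244 CPM with a median of 76.8. The log2 difference was -4.67 ± 0.79 (SE, edgeR adjusted p = 1.86e-05). In vehicle cultures row 4624 was near absence in both genotypes, at 0.699 CPM on average in KO and 0.734 CPM in WT. With Tg+PDBu it was called lower in KO as well, by -2.91 ± 1.18 (SE, edgeR adjusted p = 0.0377). Levels there were low too, at 0.205 CPM on average in KO and 1.53 CPM in WT. They came from 15 and 106 counts in total, and WT female Tg+PDBu replicate 1 held 73 of the 106. In sorted WT microglia the same row position was called higher after 24 h of LPS than with vehicle (edgeR adjusted p = 0.000413).

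Row 37 had the same form, at 3.16 and 1.31 CPM in KO females and 4.38, 5.72 and 1.07 CPM in KO males, against 7.81 to 139 CPM in WT with a median of 58.4. The 2 WT libraries nearest to KO were female replicate 3 at 7.81 CPM and male replicate 2 at 13.7 CPM, and the other 4 stood at 57.02 CPM or more. The log2 difference was -4.26 ± 0.72 (SE, edgeR adjusted p = 1.65e-05), and vehicle levels averaged 0.139 CPM in KO and 0.288 CPM in WT. In sorted WT cells row 37 was called higher after 24 h of LPS than with vehicle (edgeR adjusted p = 8.89e-05). Between sorted KO and WT cells at 24 h of LPS it differed by -0.41 (adjusted p = 0.998). The calls of these 4 rows held under each of the 23 alternatives they were run under, with adjusted p of at most 0.024.

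**Figure D2:**
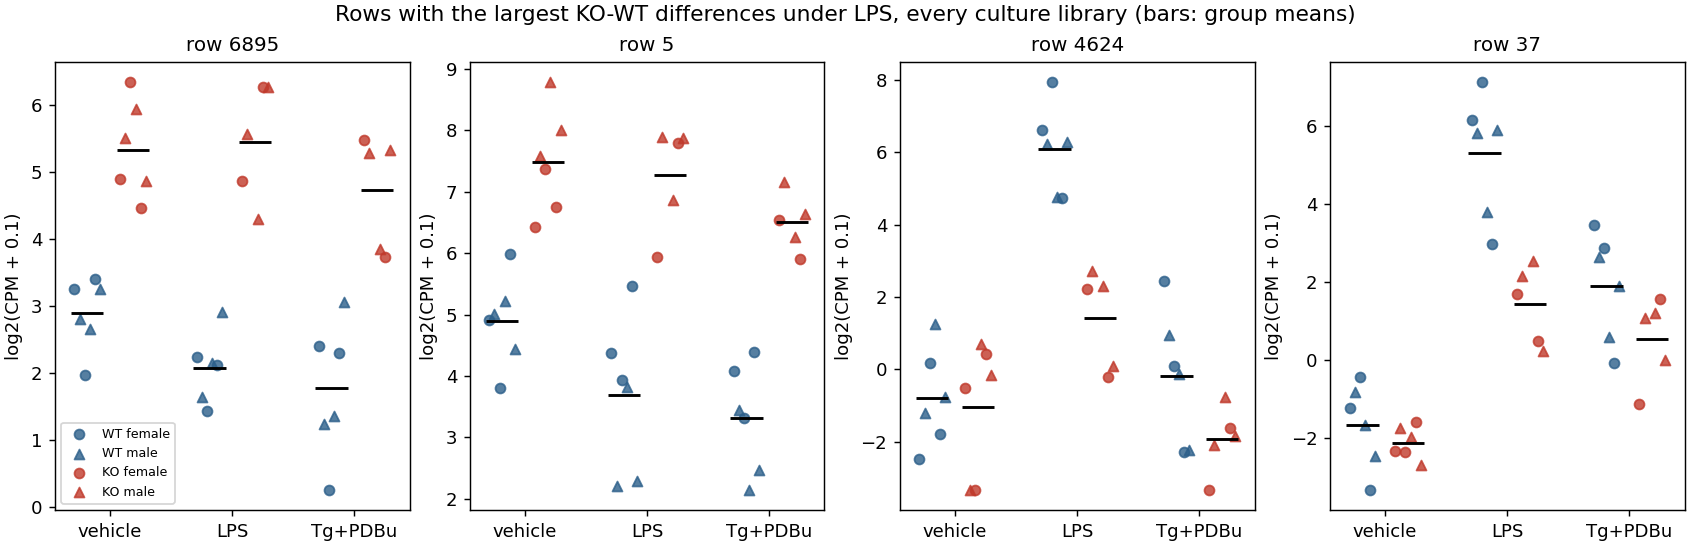
Level of the 4 named rows as log2(CPM + 0.1) in every culture library, by treatment; circles are females, triangles males, blue WT, red KO, and bars are group means. Rows 6895 and 5 are higher in KO under each treatment, while rows 4624 and 37 reach their highest levels with LPS, where the group means are 3.53 against 91.6 CPM and 3.13 against 58.2 CPM.

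Females and males gave similar genotype differences. In females 7077 rows (44.3%) were called, 3592 higher and 3485 lower in KO (21.8%), and in males 8547 (53.5%), 4462 higher and 4085 lower (25.6%). Both sexes called 5715 rows in the same direction and 13 in opposite directions, while 2819 were called in males alone and 1349 in females alone. A row called in one sex alone is not shown to differ between the sexes, and female differences had the larger median SE, 0.327 against 0.291. Across the 15979 rows the log2 differences of females and males had a Spearman coefficient of 0.801, which describes rows of 1 fit that are not independent. In females the count fell to 3918 without KO female replicate 2, which leaves that group with 1 library assumed to vary like the others. Without WT female culture 3 there were 8203 calls in females and 8908 in males.

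The difference between the sexes itself was called by edgeR for 2 rows (0.0125%), 1 in each direction (0.00626%). At an unadjusted p under 0.05 there were 1570 rows, against 799 that chance alone would give. DESeq2 called 83, voom with quality weights 0 (1069 at an unadjusted p under 0.05), and voom with culture as a block 11. Without WT female culture 3 edgeR called 6. Row 901 stood at 57.6, 61.9 and 64.1 CPM in KO males against 19.4 to 34.9 CPM in WT males, with no overlap. In females it stood at 37.3 and 35.2 CPM in KO against 37.8 to 54.2 CPM in WT, the lowest being WT female replicate 3. The sign in females was thus opposite, but their difference of -0.35 ± 0.18 was not called (SE, edgeR adjusted p = 0.107). The difference of row 901, males minus females, was 1.46 ± 0.24 on the log2 scale (SE, edgeR adjusted p = 0.0153). Row 5844 had a difference of -1.86 ± 0.30, at 15.3 to 18.6 CPM in KO males and 29.9 to 31.7 CPM in WT males. Both calls ended without KO male replicate 1 (adjusted p = 0.0561 and 0.0617) or replicate 3 (0.0657 for each), and that of row 901 also without KO female replicate 2 (0.0579) or WT female replicate 2 (0.0663).

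Most rows that separated the genotypes with LPS also did so with vehicle. Libraries are not shared between these comparisons but cultures are, since aliquots with the same culture number received different treatments. Of the 5318 rows higher in KO with LPS, 3814 were higher with vehicle (53.8% of rows were called there in either direction), which is 71.7% of the LPS list and 79.3% of the vehicle list (background for vehicle 30.1% of rows). Of the 4807 lower rows, 2731 were lower with vehicle, 56.8% and 72.2% of the respective lists (background 23.7%). With Tg+PDBu, 3454 of the higher rows (background 28.3%) and 3075 of the lower rows (background 28.6%) were called in the same direction. All 3 treatments called 3009 rows higher and 2142 lower.

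LPS alone called 805 rows higher and 937 lower. Their median log2 differences with LPS were 0.93 and -0.71, against 0.16 and -0.10 with vehicle and 0.09 and -0.12 with Tg+PDBu. The higher group had a median level of 7.48 CPM in KO and 4.11 CPM in WT, and the lower group 36.2 and 60.1 CPM. A direct test set the genotype difference with LPS apart from both other treatments in 148 of the 805 and 283 of the 937 rows, so for most of them the difference between treatments was not called.

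**Figure D3:**
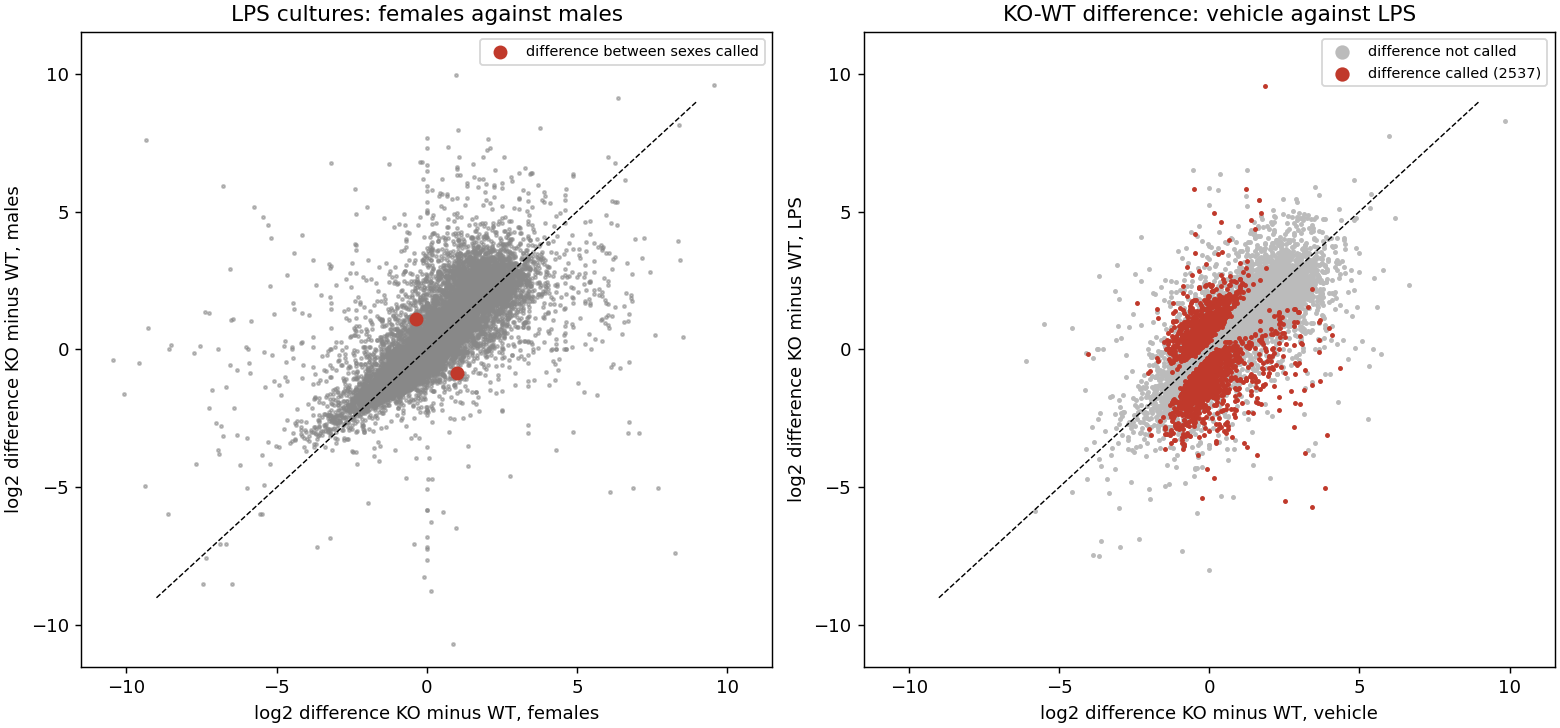
Log2 difference of KO minus WT, 1 point per row tested, with the line of equal values dashed. Left, LPS cultures of females against males, with the 2 rows whose sex difference was called in red; right, vehicle against LPS, with the 2537 rows whose difference between the treatments was called in red.

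The genotype difference with LPS departed from that with vehicle in 2537 rows (15.9%). Of these, 1264 were called between genotypes with LPS and not with vehicle, 823 of them with KO lower. In 566 rows the genotypes differed both ways in the same direction and more with LPS, 436 of them with KO lower. In 53 rows the difference was smaller with LPS, in 247 it was in opposite directions, in 396 it was called with vehicle alone, and in 11 in neither. By sign, LPS moved the difference up in 952 rows (5.96%) and down in 1585 (9.92%). This balance rested on single libraries and on scaling: it became 1531 up and 836 down without WT female LPS replicate 1, 1420 and 720 without WT female replicate 2, 1437 and 760 without WT male replicate 1, 1451 and 749 without WT male replicate 3, and 3431 and 622 with library totals alone. Without WT female culture 3 there were 3237 rows, 1238 up and 1999 down. The edgeR model had no term for culture, although LPS and vehicle libraries shared cultures. With culture as a block in voom (correlation 0.30) 3670 rows were called, 1497 up and 2173 down.

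Row 13411 changed sign between vehicle and LPS. With vehicle it ran from 245 to 361 CPM in KO (median 270, n = 6) and from 308 to 451 CPM in WT (median 408, n = 6), so the ranges overlapped. With LPS it stood at 155 and 107 CPM in KO females and at 149, 108 and 161 CPM in KO males, against 25.2 to 61 CPM in WT with a median of 32.9. The KO libraries were thus all higher. With Tg+PDBu they were all higher as well, at 143 to 215 CPM against 102 to 127 CPM in WT. The log2 difference there was 0.68 ± 0.19 (SE, edgeR adjusted p = 0.00356). The genotype difference was -0.42 ± 0.18 with vehicle and 1.80 ± 0.19 with LPS, which differ by 2.22 ± 0.26 (SE, edgeR adjusted p = 5.4e-06). Row 12610 behaved alike between vehicle and LPS, at lower levels: WT averaged 73.9 CPM with vehicle and 6.28 CPM with LPS, and KO 34.2 and 16.5 CPM. With Tg+PDBu the genotype difference of row 12610, 0.18 ± 0.40, was not called. Its genotype differences with LPS and with vehicle were apart by 2.55 ± 0.55 (edgeR adjusted p = 0.00233).

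Row 6073 was at most 1.82 CPM in any vehicle library. With LPS it ran from 27 to 128 CPM in WT, with a median of 81.5, and stood at 5.61 and 2.84 CPM in KO females and 4.12, 11.4 and 3.85 CPM in KO males. No KO library reached the lowest WT one. The genotype difference was -3.84 ± 0.51 with LPS and 1.61 ± 0.79 with vehicle. The latter was not called and came from 15 WT and 63 KO counts in total. With Tg+PDBu KO was lower too, at 0.360 to 1.52 CPM against 2.36 to 9.43 CPM in WT. The log2 difference there was -2.78 ± 0.55 (SE, edgeR adjusted p = 0.000155). The fitted genotype difference moved by -5.44 ± 0.93 between vehicle and LPS (SE, edgeR adjusted p = 0.000313), a size that depends in part on those low counts. Row 9837 moved by a fitted -5.00 ± 1.08, but its 6 WT vehicle libraries held 3 counts in total, so this value depends on the prior count. With LPS it ran from 8.92 to 21.3 CPM in WT and from 3.21 to 5.37 CPM in KO.

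Against Tg+PDBu, the other stimulus, the genotype difference departed in 2971 rows (18.6%), 1523 up (9.53%) and 1448 down (9.06%) with LPS. In 424 of them the genotypes differed in opposite directions under the 2 stimuli, and 1197 were called with LPS and not with Tg+PDBu. The balance turned with RLE (1278 and 1795), DESeq2 (1507 and 2051) and voom (1685 and 1721), and on leaving out KO female LPS replicate 1 (1321 and 1805), KO female Tg+PDBu replicate 1 (1121 and 1358), WT female Tg+PDBu replicate 1 (1386 and 1421) or WT male Tg+PDBu replicate 1 (1343 and 1392). Without WT female culture 3 there were 3534 rows, 1834 up and 1700 down. With culture as a block in voom there were 3975, 2095 up and 1880 down.

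Row 2675, the row with the largest upward difference under the naming rule, had opposite directions. With Tg+PDBu it ran from 332 to 585 CPM in WT and from 72.5 to 135 CPM in KO, whereas with LPS WT ran from 5.41 to 11.3 CPM and KO from 11.6 to 22.9 CPM. The genotypes did not overlap under either stimulus, and their order was reversed. With vehicle KO was higher, as with LPS, at 29.5 to 44.3 CPM against 16.1 to 23.3 CPM in WT. The log2 difference with vehicle was 0.83 ± 0.16 (SE, edgeR adjusted p = 8.2e-05). Taken by sex, the LPS difference was 1.61 in males (edgeR adjusted p = 9.35e-06) and 0.51 in females (0.117). The 2 log2 differences, 1.06 ± 0.18 with LPS and -2.32 ± 0.17 with Tg+PDBu, were 3.38 ± 0.24 apart (SE, edgeR adjusted p = 1.19e-09). Under the 2 stimuli row 676 had the same form, 3.34 ± 0.39 apart, while its vehicle difference, 0.32 ± 0.25, was not called. Its LPS means were 27.2 CPM (KO) and 8.38 CPM (WT), and its Tg+PDBu means 15.1 and 52.9 CPM.

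Row 624 was close to absent without LPS and differed in the other direction. WT libraries lay between 136 and 305 CPM with LPS and KO libraries between 13.2 and 30.9 CPM, a log2 difference of -3.46 ± 0.31. With Tg+PDBu it averaged 1.03 CPM in WT and 1.95 CPM in KO, and the differences were -4.33 ± 0.50 apart (SE, edgeR adjusted p = 1.24e-06). With LPS, row 14695 averaged 210.2 CPM over WT and 44.2 CPM over KO libraries, a log2 difference of -2.28 ± 0.35. With Tg+PDBu it averaged 0.195 CPM in WT and 0.518 CPM in KO, from 10 and 34 counts in total. The difference there, 1.79 ± 0.91, was not called. The fitted -4.08 ± 0.93 between stimuli (SE, edgeR adjusted p = 0.00277) thus depends in part on very low counts. It lost its call with the culture as a block (-4.22, adjusted p = 0.0506).

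A further question was which rows outside these 11 libraries fall on which side. The labels describe the sorted table as microglia taken by FACS from adult brain, whereas metadata supplied with its counts call the samples cultured. By the labels LPS was given in vivo there, whereas here it was given to the cultures. The labels were followed, and every statement on sorted cells rests on them. The table appeared to list its rows in the same order: over 26168 rows the Spearman coefficient of their mean levels was 0.853, against 0.327 to 0.339 with a shift of 1 to 3 rows. Of 2077 tested rows that LPS had raised at 24 h in sorted WT cells (14.1% of the rows of that table), 1280 were lower in KO LPS cultures (61.6%) and 225 higher (10.8%), with a median log2 difference of -0.45. Over all 13382 rows tested in both tables the shares were 34.2% lower and 30.3% higher, with a median of -0.04. Of the 991 rows raised at 6 h in sorted WT males (6.55% of that table), 611 were lower (61.7%) and 118 higher (11.9%), with a median of -0.43. The names of the 6 h libraries carry a separate series of numbers that no vehicle library has. In the 6 h lists LPS and that series cannot be told apart. Rows that LPS had lowered at 24 h in sorted WT cells (11.9%) were more often higher than lower, at 671 and 441 of 1641 rows. Of the 518 rows lowered at 6 h (3.99%), 172 were higher and 188 lower, with a median of -0.02 that turned to 0.49 over rows lowered more than 2-fold. With library totals alone the medians of the raised rows turned to 0.13 (24 h) and 0.14 (6 h), while that of the rows tested in both tables became 0.53. The shares lower were then 26.4% and 25.5%, against 12.0% of the rows tested in both tables.

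Rows raised by LPS in sorted cells are abundant ones in culture, and level went with direction. In the highest class of level, 80.2% of the 1159 rows raised at 24 h were lower in KO, against 68.7% of all rows there. In the third class the shares were 48.0% of 556 rows and 33.5%. In the second they were 23.9% of 268 rows and 11.7%, and in the lowest 21.3% of 94 rows and 6.41%. Higher in KO were 3.80%, 14.2%, 30.2% and 22.3% of the rows raised at 24 h, from the highest class to the lowest. Over all rows these shares were 10.5%, 28.3%, 51.9% and 42.4%. In the second and lowest classes the rows raised at 24 h were thus more often higher than lower, at 81 and 64 rows and at 21 and 20. Those raised at 6 h had 47 higher and 23 lower in the second class, and 6 and 9 in the lowest. With library totals alone the highest class had 37.0% of the rows raised at 24 h lower, against 28.0% of all rows there. This division by level was added after the data were seen.

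As a share of each library's counts, the rows raised at 24 h in sorted cells took 33.3% to 37.6% in the 5 KO LPS libraries and 42.5% to 47.6% in the 6 WT LPS libraries, with no overlap. The genotypes were apart without LPS as well, at 29.8% to 33.2% in KO and 35.2% to 38.5% in WT with vehicle. With the rows raised at 6 h the ranges were 13.6% to 15.1% in KO and 16.5% to 20.4% in WT with LPS, and 11.3% to 11.8% and 11.8% to 13.3% with vehicle. WT female replicate 3 and WT male replicate 2 had the lowest 2 values among the WT LPS libraries in both sets.

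Rows too low to be tested in the sorted microglia were on the other side. They passed the count filter in the culture libraries alone, so KO libraries in which they were high could bring them in. Of these 2597 rows, a set formed after the data were seen, 1263 were higher in KO LPS cultures (48.6%) and 234 lower (9.01%), with a median log2 difference of 1.55. They made up 41.5% of the rows over 4-fold higher in KO and 16.3% of all rows tested. Most of them, 1984, lay in the lowest class of level, where 44.6% were higher and 6.30% lower, against 40.3% and 6.51% of the 2011 rows there that were tested in sorted cells. In the second class 65.5% of 495 such rows were higher, against 49.9% of 3500. The third and highest classes held 81 and 37 of them. They took 1.92% to 2.42% of the counts in KO LPS libraries and 1.18% to 1.35% in WT. Whether these rows belong to other cells of the culture could not be tested without gene names.

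Between sorted KO and WT cells at 24 h of LPS 3 rows were called in all (0.0196% of 15344), with 818 at an unadjusted p under 0.05 against 767 that chance alone would give. The 1237 rows over 4-fold higher in KO LPS cultures and tested in both tables had a median log2 difference of -0.11 there (quartiles -0.55 and 0.26), and 1 of them was called, higher as in culture. The 316 rows over 4-fold lower had a median of -0.03 (quartiles -0.20 and 0.10), with 1 call, lower as in culture. At 6 h in males the medians were -0.01 and -0.12. The tables differ in whether LPS was given in vivo or in culture, and in age, tissue, preparation, RNA fraction and library kit. No test was therefore made between them.

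Rows responding to Tg+PDBu in WT cultures leaned the same way as those responding to LPS. The contrast behind this list holds none of the LPS libraries, but the WT cultures are the same. The response called 51.2% of rows. Of 3852 rows raised (24.1%), 1855 were lower in KO with LPS (48.2%) and 760 higher (19.7%). Of 4333 rows lowered (27.1%), 1118 were lower (25.8%) and 1703 higher (39.3%). With library totals alone the raised rows turned to 641 lower and 1818 higher. In the highest class of level 77.0% of the 1435 rows raised were lower in KO, against 68.7% of all rows there.

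**Figure D4:**
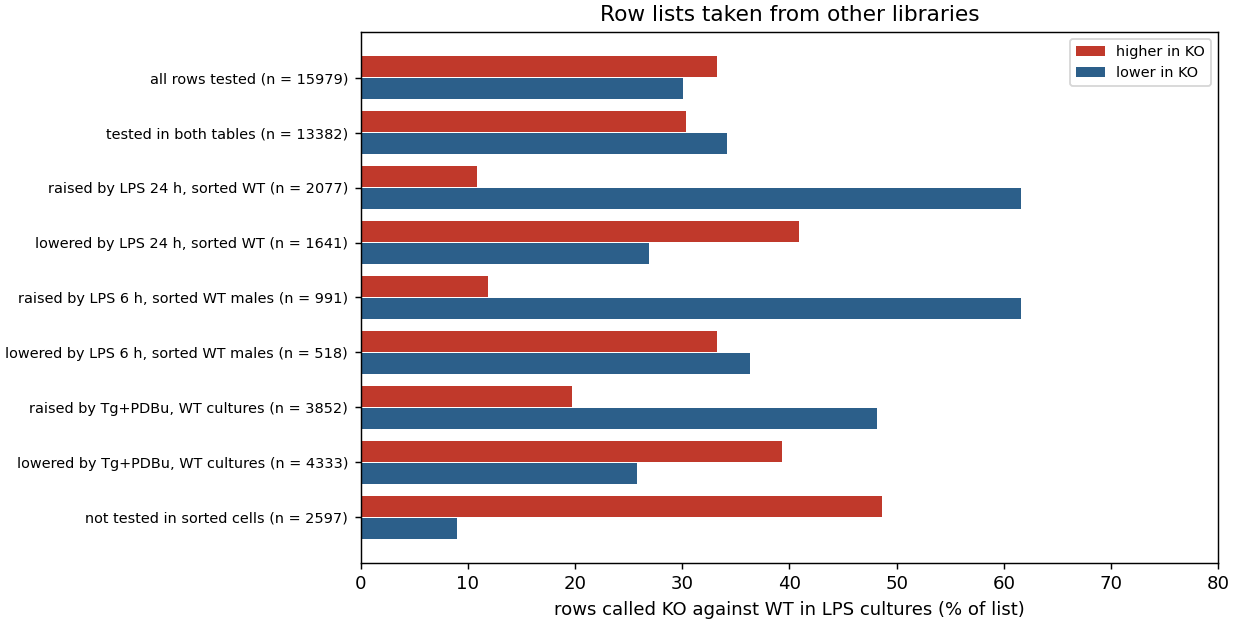
Share of each row list called higher (red) or lower (blue) in KO than in WT LPS cultures, as a percentage of the list's rows tested in culture; lists come from sorted cells or from vehicle and Tg+PDBu cultures. Rows raised by LPS in sorted WT cells are lower in KO in 61.6% (24 h) and 61.7% (6 h) of cases, against 34.2% of rows tested in both tables; with library totals alone the shares are 26.4%, 25.5% and 12.0%.

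Some cultures kept their place between the genotypes across treatments. It was read from the share of counts in the 3284 rows called and over 2-fold higher in KO with Tg+PDBu. That contrast held no LPS or vehicle library, but most of its cultures were the same, and all 34 libraries shared the filter, scaling and fit. A gap between the genotypes, and the place of a culture, are thus partly built into these rows. With LPS this share was 8.57% and 13.7% in KO females and 14.1%, 11.9% and 14.97% in KO males. In WT it was 2.37%, 2.27% and 4.53% in females and 2.12%, 3.04% and 2.73% in males. WT female culture 3 was the highest of the WT cultures with LPS (4.53%) and with vehicle (5.75%), and WT male culture 4 was next with both (3.04% and 3.50%). KO female culture 15 was the lowest of the KO cultures with LPS (8.57%) and with vehicle (9.84%). No WT library came within the KO range with LPS or with vehicle.

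**Figure D5:**
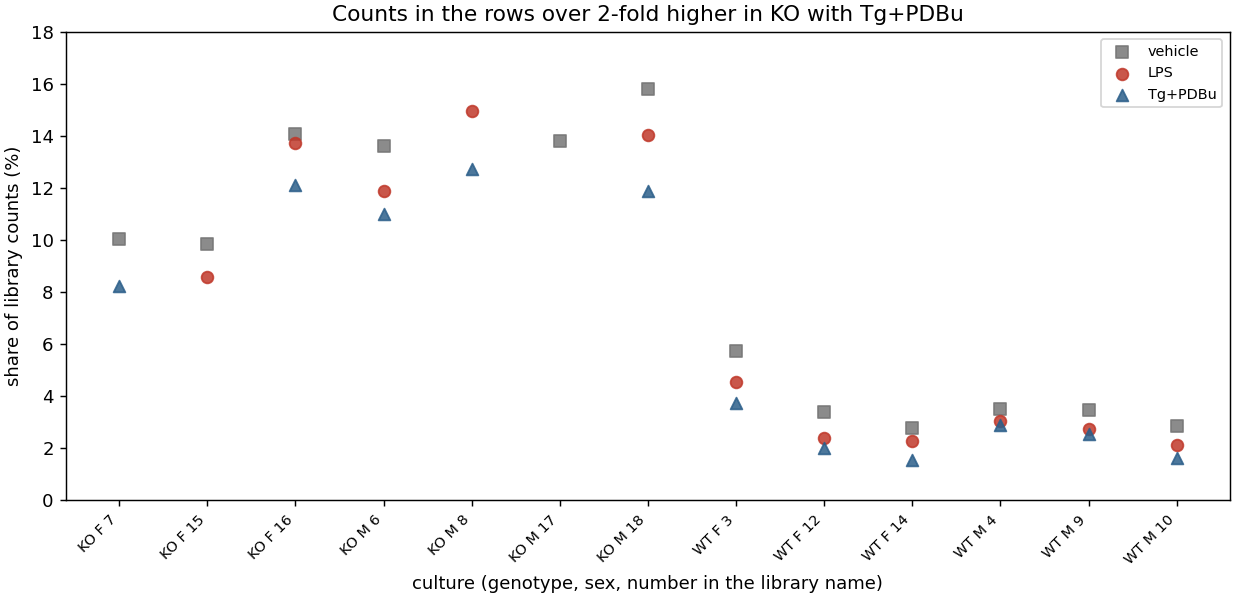
Share of each library's counts in the rows over 2-fold higher in KO with Tg+PDBu (vertical axis, %), by culture (horizontal axis) and treatment (symbols). KO LPS libraries lie between 8.57% and 14.97% and WT LPS libraries between 2.12% and 4.53%; WT female culture 3 is the highest WT culture and KO female culture 15 the lowest KO culture with LPS and with vehicle.

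The spread between cultures after LPS was wider in WT than in KO libraries. With sexes centred, the median over rows of the SD of log2 CPM was 0.404 in WT and 0.291 in KO, a ratio of 1.39, and the WT SD was the larger in 68.5% of rows. With vehicle the medians were 0.285 and 0.248 and with Tg+PDBu 0.305 and 0.263. The ratio with LPS was 1.19 without WT female replicate 3 and 1.27 without WT male replicate 2, the lowest values on leaving out any 1 library. The ratio has no test of its own.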

How the data were processed

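Whole-number counts per row were used as the authors deposited them, not normalized. The submitters' processing notes list the build GRCm38 with STAR 2.7.10a, Trim Galore 0.6.7 and Salmon 1.10.1; how they were combined and how rows were counted is not given in the sources used here. Per the labels' protocols, culture libraries were made from 100 ng of RNA. Neither table names its 45707 rows, so lists of named genes and cell type markers were not tested. Rows were kept by filterByExpr of edgeR 4.0.16 in R 4.3.3 (minimum count 10, minimum total 15), which left 15979 rows with 99.9% of the counts. All 34 culture libraries, at 7868694 to 16070721 counts each, were scaled by TMM and entered 1 quasi-likelihood model with a mean per group of genotype, sex and treatment. Contrasts weighted the sexes equally. The sorted table was fitted alone in the same way. Tests were two-sided, and a row was called at a Benjamini-Hochberg adjusted p under 0.05 over all rows. The SE of a log2 difference is its size over the square root of F. Log2 CPM used a prior count of 2.

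Named rows were, for each of 4 tests, at most the 2 called rows with the largest positive and the 2 with the largest negative difference, at a mean log2 CPM of at least 3 over the LPS libraries and over 3 counts in each genotype with LPS. For KO against WT the CPM ranges of the genotypes also had to be apart. For differences between treatments the direction had to be the same in both sexes. The comparison, the lists and the rules were chosen with earlier results of these data known. The scripts were tested on simulated counts with known changes. Alternatives used RLE, library totals, no filter, DESeq2 1.42.0, limma 3.58.1 (voom), blocks, and libraries left out. SD and SE cover counting error and the spread between libraries; the reads carry no molecular identifiers.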

Additional observations from a re-analysis of the deposited data

Results flagged for a closer look

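With LPS the genotype difference was itself different from that with vehicle in 2537 rows, from that with Tg+PDBu in 2971 rows, and between males and females in 2 rows, each by a direct test in edgeR. The rows with the largest such differences against vehicle were row 12610 (2.55 on the log2 scale), row 13411 (2.22), row 6073 (-5.44) and row 9837 (-5.00). Rows 6073 and 9837 held 15 and 3 counts in total in the WT vehicle libraries. Against Tg+PDBu the largest were row 2675 (3.38), row 676 (3.34), row 624 (-4.33) and row 14695 (-4.08, with 10 counts in total in the WT Tg+PDBu libraries). Between the sexes they were row 901 (1.46) and row 5844 (-1.86).

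Among 51 sets of 5 KO or 6 WT LPS libraries that were looked at for a library far from its group, 2 had one, where chance gives about 1 in 20. Row 4624 stood at 244 CPM in WT female replicate 2, far above the other WT libraries. In WT male replicate 2 the 10 most abundant rows took 10.0% of the counts, the highest share of the 6 WT libraries.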

How the results depend on the processing

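Leaving out 1 library at a time gave 8987 to 10422 calls for KO against WT with LPS, 2108 to 3951 past 2-fold, 3918 to 7999 in females, 7132 to 8828 in males, 0 to 23 for males minus females, 1755 to 3381 for LPS minus vehicle and 2266 to 3613 for LPS minus Tg+PDBu. Within culture numbers up to 10 (males) KO against WT gave 5702 calls, and within 12 and over (females) 4923, with fewer libraries in each. The edgeR sex difference was at 0 calls without KO male replicate 1 or 3 (1426 and 1334 rows at an unadjusted p under 0.05). It gave 83 calls with DESeq2, 0 with voom (1069 unadjusted), 8 with the replicate block, 11 with culture as a block and 6 without WT female culture 3, and LPS minus vehicle gave 4053 with library totals alone, an alternative added after the data were seen. The cause of these changes was not tested.

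Replicate numbers did not pair the libraries: deviations of same-numbered KO and WT libraries correlated at -0.25 to 0.13 in 5 pairs, and 1 of 5 KO libraries correlated best with its own number. With the replicate block KO against WT gave 10294 calls, 3489 past 2-fold.

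With lists cut at 2-fold, median log2 differences were 2.08 and -1.43 (vehicle list, higher and lower), 2.05 and -1.15 (Tg+PDBu list), -0.11 and 0.53 (WT Tg+PDBu response) and -0.56 and 1.09 (sorted 24 h, raised and lowered). The uncut lists had TMM medians of 1.77 and -0.56 (vehicle list), 1.72 and -0.51 (Tg+PDBu list) and -0.29 and 0.17 (WT Tg+PDBu response). Those of the sorted lists were -0.45 and 0.21 (24 h) and -0.43 and -0.02 (6 h). With library totals alone for KO against WT, added after the data were seen, the uncut lists stood at 2.30 and 0.012, 2.25 and 0.065, 0.28 and 0.74, 0.13 and 0.77, and 0.14 and 0.55 in the same order. Every negative median of the uncut lists thus turned. The lists cut at 2-fold were not run with library totals alone. With lists cut at 2-fold the rows lowered at 6 h turned from -0.02 to 0.49. Those lowered at 24 h stood at 0.33 with no filter. With 1 library left out, the medians of lower rows ran from -0.66 to -0.52 (vehicle list), -0.61 to -0.47 (Tg+PDBu list), 0.13 to 0.23 (sorted 24 h) and -0.15 to 0.014 (sorted 6 h). The ratio of WT to KO spread ran from 1.19 to 1.88. Low rows are limited by depth. Rows with at most 3 counts in a genotype were still called, 150 higher and 16 lower in KO, but the size of their fold is not reliable.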
